A study of Homo sapiens with 12 samples.

Results

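The kinases described are members of the SRC family (FGR, LYN, FYN, SRC and YES1), the kinase CSK that restrains them, and the tyrosine kinases SYK and BTK that act after them. They were chosen by name from a list of 9 kinases, and 8 of them had a row among the 13881 genes of the table. LCK was not analysed here. RNA was sequenced from KG-1 and MOLM-14 cells, 2 lines of human acute myeloid leukaemia, exposed for 96 h to ASLAN003, an inhibitor of the pyrimidine synthesis enzyme DHODH, or to the solvent DMSO. The 4 groups were KG-1 with ASLAN003, KG-1 with DMSO, MOLM-14 with ASLAN003 and MOLM-14 with DMSO, each with 3 libraries (12 in all). All cells grew in RPMI1640 with foetal bovine serum, each line stands for 1 leukaemia, and the sources used here do not state which dose of ASLAN003 was given.

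In myeloid cells, SRC family kinases phosphorylate the tyrosine motifs of receptors. Activating motifs (ITAMs) then bind SYK, which switches on adaptors, BTK and phospholipase C gamma, whereas inhibitory motifs (ITIMs) bind phosphatases. CSK phosphorylates the tail of SRC family kinases and so keeps them closed. FGR and LYN are the members best known from monocytes and granulocytes, whereas SRC, FYN and YES1 are found in many tissues.

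The libraries had an estimated 17900000 to 19000000 fragments. Levels are in FPKM, fragments per length of transcript and per size of library, so different genes can be set side by side. Some markers of myeloid cells were present in every library, among them PTPRC (the leukocyte antigen CD45) and SPI1 (the myeloid transcription factor PU.1). Others were not: CD34, for which KG-1 is known, was at 0 to 0.17 FPKM throughout, and KIT was at or below 0.39 FPKM in KG-1. The summed level of the 9 myeloid identity genes was 726 to 841 FPKM with ASLAN003 and 549 to 599 FPKM with DMSO in KG-1, and 707 to 832 FPKM with ASLAN003 and 597 to 663 FPKM with DMSO in MOLM-14. SPI1 alone was at 235 to 260 FPKM with ASLAN003 and 115 to 131 FPKM with DMSO in KG-1, and at 151 to 228 FPKM with ASLAN003 and 101 to 128 FPKM with DMSO in MOLM-14. ANPEP (the surface peptidase CD13) was at 106 to 210.3 FPKM with ASLAN003 and 12.3 to 19.5 FPKM with DMSO in KG-1. In MOLM-14, ANPEP was at or below 0.88 FPKM. PTPRC was at 171 to 181 FPKM with ASLAN003 and 71.1 to 74.4 FPKM with DMSO in KG-1. In MOLM-14, PTPRC overlapped, at 58.7 to 110 FPKM with ASLAN003 and 49.2 to 69.7 FPKM with DMSO. Other genes of the list lay lower with ASLAN003. MPO, the granule enzyme myeloperoxidase, was at 33.8 to 44.4 FPKM with ASLAN003 and 141 to 172 FPKM with DMSO in KG-1, and at 4.04 to 5.41 FPKM with ASLAN003 and 17.9 to 25.1 FPKM with DMSO in MOLM-14. CEBPA, a myeloid transcription factor, was at 115 to 136 FPKM with ASLAN003 and 145 to 161 FPKM with DMSO in KG-1. CEBPA was not lower in MOLM-14, at 308 to 332 FPKM with ASLAN003 and 281 to 312 FPKM with DMSO, which overlapped. The part of these markers in the results below was not tested. CD3D, the 1 measured T cell marker of 7, stayed at or below 0.22 FPKM, the 6 B cell markers were not analysed here, and the 1 measured NK cell marker of 4 (NCAM1) was at 32.9 to 44.7 FPKM in MOLM-14. ITGA2B, the 1 measured platelet marker of 7 erythroid and platelet genes, was at or below 2.08 FPKM. The 3 measured of 6 fibroblast and epithelial markers summed to 11.2 to 33.2 FPKM. In bulk RNA, fewer cells of a type and less RNA per cell cannot be told apart.

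In KG-1, 4 of the 8 kinases (FGR, SRC, SYK and LYN) rose with ASLAN003 and none fell. A gene was called at a Benjamini-Hochberg adjusted p under 0.05 in limma, fitted to log2(FPKM + 1) of all 13353 genes tested. Of all genes tested in KG-1, 19.4% were called higher and 14.3% lower. The median difference of the 8 kinases was 0.50 on the log2 scale, against 0.05 over all genes. In MOLM-14, FGR, LYN, CSK and SYK were called higher and none lower, where 9.69% of genes were called higher and 3.33% lower. The median there was 0.37 for the kinases and 0.08 for all genes.

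**Figure D1:**
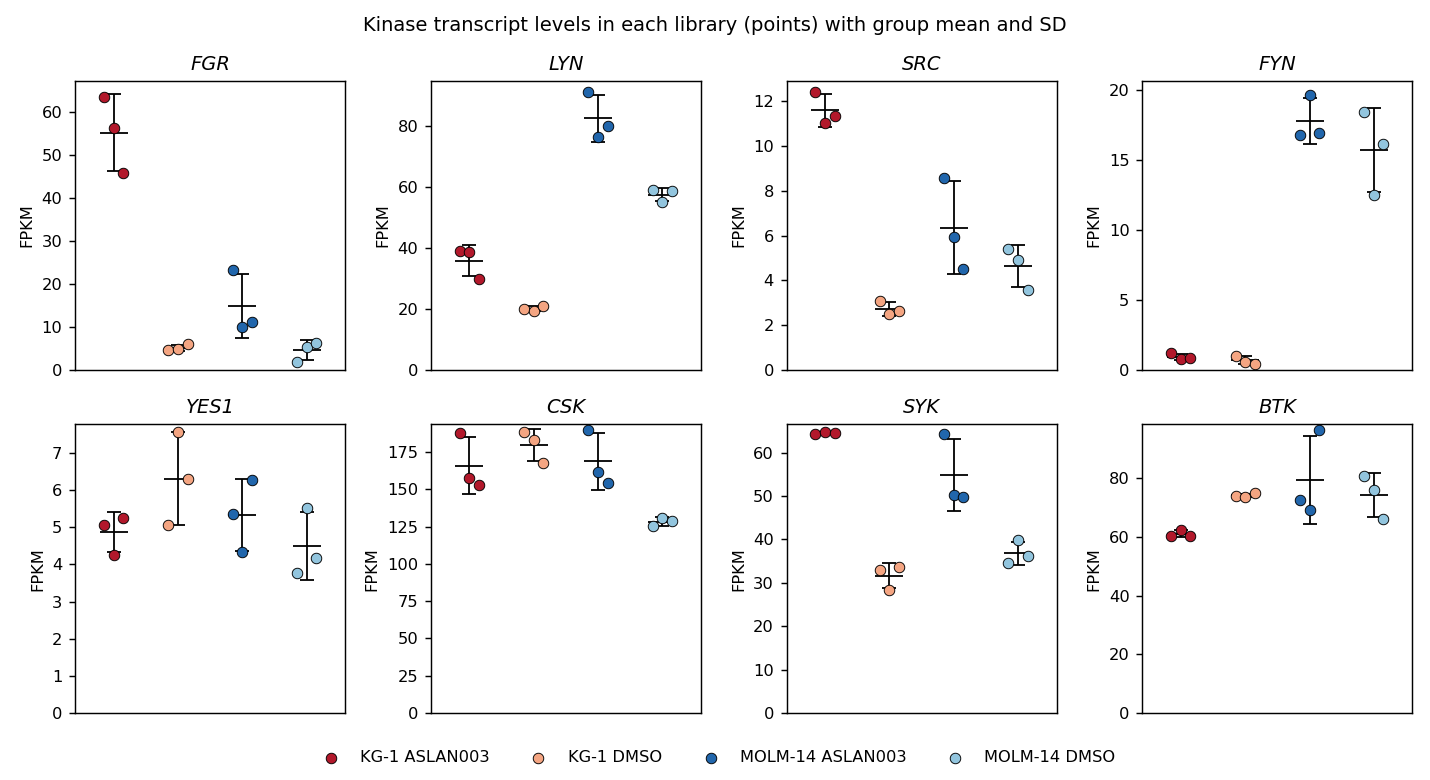
Level of each kinase in FPKM (vertical axes, from 0) in every library (points), with the mean (long dash) and SD (error bar) of each group of 3. FGR, SRC, SYK and LYN lie higher with ASLAN003 than with DMSO in KG-1 without overlap, whereas FYN separates the lines rather than the treatments.

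FGR, a SRC family kinase of phagocytes (chromosome 1, 27612064 to 27635277, minus strand, GRCh38), had the largest difference among the 8 in both lines. It was at 63.6, 56.3 and 45.8 FPKM in the KG-1 libraries with ASLAN003, against 4.51, 4.79 and 5.95 FPKM in those with DMSO. Every treated library lay far above every control library. The log2 difference was 3.2 ± 0.35 (SE; limma, adjusted p = 1.95e-05), at or above that of 99.7% of the genes tested. In MOLM-14, FGR was at 23.4, 9.87 and 11.2 FPKM with ASLAN003 and at 1.89, 5.43 and 6.37 FPKM with DMSO. The groups did not overlap, but treated replicate 1 stood well above the other treated libraries and DMSO replicate 1 well below the other controls. The log2 difference was 1.52 ± 0.35 (limma, adjusted p = 0.0131), and it lay between 1.10 and 1.78 over 15 other settings.

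LYN, the SRC family kinase that phosphorylates both activating and inhibitory motifs (chromosome 8, 55879813 to 56014168, plus strand), was the most abundant of the 5 SRC family members described in 3 of the 4 groups. In KG-1 it was at 38.9, 38.8 and 29.9 FPKM with ASLAN003 and at 20.0, 19.2 and 21.0 FPKM with DMSO. MOLM-14 held 91.2, 76.4 and 80.2 FPKM with ASLAN003 and 58.9, 55.0 and 58.6 FPKM with DMSO. Treated and control libraries were separate in both lines, and every MOLM-14 library lay above every KG-1 library. The log2 difference was 0.80 ± 0.12 in KG-1 (limma, adjusted p = 0.000213) and 0.51 ± 0.12 in MOLM-14 (limma, adjusted p = 0.0136). Without MOLM-14 DMSO replicate 2, the MOLM-14 call was lost (log2 difference 0.48, adjusted p = 0.0538).

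SRC, the family's founding member (chromosome 20, 37344685 to 37406050, plus strand), had treated and control libraries without overlap in KG-1, but not in MOLM-14. It was at 12.4, 11.04 and 11.3 FPKM in KG-1 with ASLAN003, against 3.08, 2.50 and 2.61 FPKM with DMSO, a log2 difference of 1.76 ± 0.21 (limma, adjusted p = 3.93e-05). Its levels in MOLM-14 were 8.59, 5.96 and 4.49 FPKM with ASLAN003 and 5.42, 4.93 and 3.57 FPKM with DMSO. Those libraries overlapped, and the log2 difference of 0.36 ± 0.21 was not called (adjusted p = 0.290).

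FYN and YES1 did not pass the test in either line. FYN, known from T cell and neuronal signalling (chromosome 6, 111660332 to 111873452, minus strand), was at 1.17, 0.76 and 0.84 FPKM in KG-1 with ASLAN003 and at 0.99, 0.59 and 0.44 FPKM with DMSO. In MOLM-14 it was at 16.8, 19.7 and 16.95 FPKM with ASLAN003 and at 18.4, 12.5 and 16.2 FPKM with DMSO. The treatments overlapped in both lines, while the lines were far apart. YES1 (chromosome 18, 721588 to 812546, minus strand) was low everywhere, at 4.25 to 5.26 FPKM with ASLAN003 and 5.06 to 7.57 FPKM with DMSO in KG-1, and at 4.34 to 6.28 FPKM with ASLAN003 and 3.78 to 5.52 FPKM with DMSO in MOLM-14. Its log2 differences were -0.31 ± 0.19 in KG-1 and 0.21 ± 0.19 in MOLM-14. YES1 has a processed pseudogene copy, YES1P1, so its level is uncertain as far as reads were shared between them.

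CSK, the kinase that holds the SRC family inactive (chromosome 15, 74782057 to 74803198, plus strand), had the highest level of the 8 kinases in every library. It was at 187, 157 and 153 FPKM in KG-1 with ASLAN003 and at 188, 183 and 168 FPKM with DMSO, and the treatments overlapped. In MOLM-14 it was at 189.9, 162 and 154 FPKM with ASLAN003 and at 125, 131 and 129 FPKM with DMSO, without overlap. The log2 difference was -0.12 ± 0.10 in KG-1 (limma, adjusted p = 0.410) and 0.39 ± 0.10 in MOLM-14 (limma, adjusted p = 0.0287). The MOLM-14 call was lost in 8 of 15 other settings, among them without ASLAN003 replicate 1 (adjusted p = 0.0663), DMSO replicate 1 (0.0863), DMSO replicate 2 (0.0689) and DMSO replicate 3 (0.0690) of that line.

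SYK, the kinase that docks on phosphorylated ITAMs (chromosome 9, 90801787 to 90898549, plus strand), was higher with ASLAN003 in both lines. It was at 64.3, 64.7 and 64.5 FPKM in KG-1 with ASLAN003, against 32.9, 28.5 and 33.7 FPKM with DMSO. In MOLM-14 it was at 64.3, 50.1 and 49.8 FPKM with ASLAN003, against 34.6, 39.8 and 36.1 FPKM with DMSO. All treated libraries of a line lay above all its controls, and in MOLM-14 treated replicate 1 was again the highest. The log2 difference was 1.01 ± 0.12 in KG-1 (limma, adjusted p = 3.54e-05) and 0.55 ± 0.12 in MOLM-14 (limma, adjusted p = 0.00904).

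BTK, the TEC family kinase that activates phospholipase C gamma (chromosome X, 101349447 to 101390796, minus strand), was not called in either line. It was at 60.5, 62.4 and 60.4 FPKM in KG-1 with ASLAN003, against 74.0, 73.7 and 74.9 FPKM with DMSO. In KG-1 all treated libraries lay below all controls, yet the log2 difference of -0.28 ± 0.12 missed the threshold (limma, adjusted p = 0.10). That difference was called with median centring (adjusted p = 0.0296) and with a fit of the KG-1 libraries alone (adjusted p = 0.0122). The MOLM-14 libraries held 72.6, 69.2 and 96.6 FPKM with ASLAN003 and 80.7, 76.1 and 66.0 FPKM with DMSO, and the groups overlapped (log2 difference 0.09 ± 0.12, limma, adjusted p = 0.706).

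When the MOLM-14 libraries were fitted alone, none of the 8 kinases was called. The limma adjusted p was then 0.107 for FGR, 0.0627 for LYN, 0.110 for CSK and 0.0872 for SYK, and 346 genes were called in place of 1738. MOLM-14 ASLAN003 replicate 1 had the highest level of FGR, LYN, SRC, CSK and SYK among the libraries of that line. Without it, the log2 difference was 1.16 for FGR (limma, adjusted p = 0.0388), 0.44 for LYN (0.0362) and 0.43 for SYK (0.0189). The 4 calls in KG-1 held in all 15 other settings tried.

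**Figure D2:**
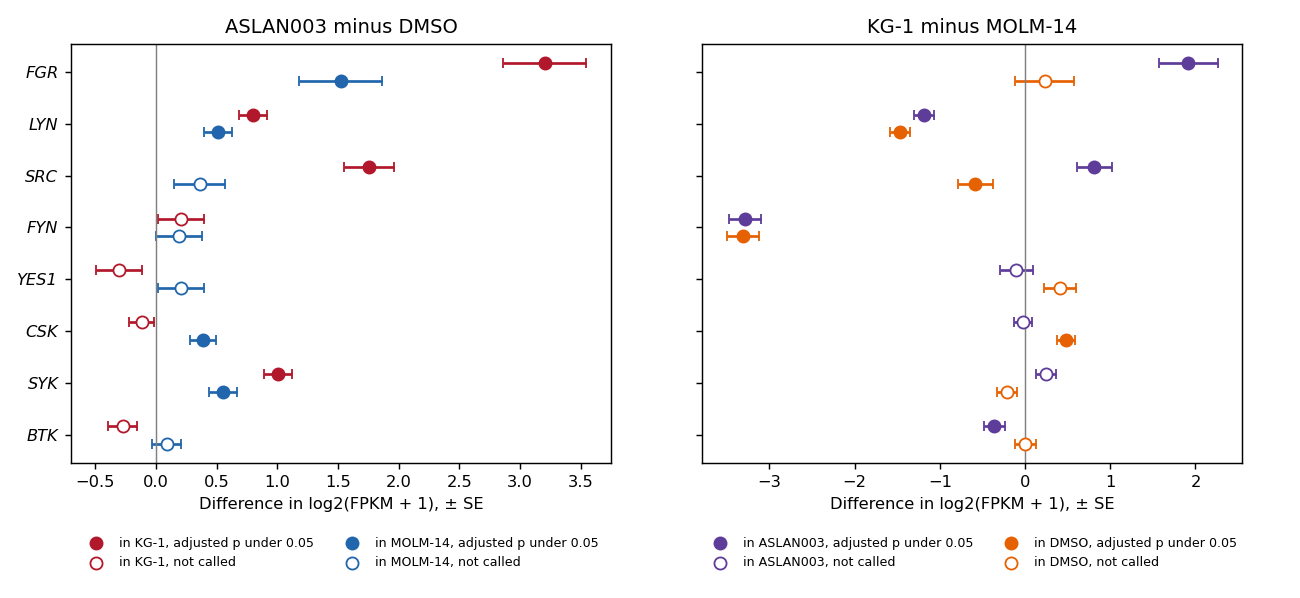
Difference in log2(FPKM + 1) of each kinase with its SE (horizontal axes), ASLAN003 minus DMSO in each line (left) and KG-1 minus MOLM-14 under each treatment (right). Filled points have an adjusted p under 0.05. The FGR difference between treatments was 3.2 in KG-1 and 1.52 in MOLM-14, and FYN was lower in KG-1 than in MOLM-14 by more than 3 log2 units under either treatment.

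Promoters of FGR and SYK, which like LYN were called in both lines, were set beside that of BTK, which was called in neither. The 250 bases before a RefSeq start (GRCh38.p14) are shown for 1 promoter each. Matches to GAGGAA on either strand, letters that contain the core of sites bound by ETS factors such as PU.1, are in capitals (TTCCTC is the same motif on the other strand). The promoters are those of FGR (chr1:27635186-27635435, minus strand), of SYK (chr9:90801569-90801818, plus strand) and of BTK (chrX:101390797-101391046, minus strand).
FGR: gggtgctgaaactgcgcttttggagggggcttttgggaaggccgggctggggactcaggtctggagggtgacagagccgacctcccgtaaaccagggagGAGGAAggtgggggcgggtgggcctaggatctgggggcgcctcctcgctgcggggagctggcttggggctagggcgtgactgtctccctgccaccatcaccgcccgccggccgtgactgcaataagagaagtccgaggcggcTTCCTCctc
SYK: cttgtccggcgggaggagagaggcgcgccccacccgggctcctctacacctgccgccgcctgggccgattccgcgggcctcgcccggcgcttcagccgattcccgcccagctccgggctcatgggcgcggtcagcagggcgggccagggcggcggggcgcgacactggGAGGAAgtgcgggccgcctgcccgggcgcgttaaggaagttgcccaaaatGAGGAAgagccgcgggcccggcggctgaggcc
BTK: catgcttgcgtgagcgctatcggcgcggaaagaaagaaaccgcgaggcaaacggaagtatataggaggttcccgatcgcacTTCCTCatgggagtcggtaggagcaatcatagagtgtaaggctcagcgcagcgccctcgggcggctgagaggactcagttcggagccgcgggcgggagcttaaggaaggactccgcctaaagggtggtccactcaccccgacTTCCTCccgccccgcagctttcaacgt
The matches begin at -151 and -9 from the FGR start, at -82 and -32 from the SYK start and at -169 and -27 from the BTK start. Each is the promoter of its gene with the most matches. RefSeq promoters were matched for 6 of the kinases (all but LYN and SRC), 13 promoters in all, and 5 of these (38.5%) held at least 1 match, as did 23.6% of the 35116 promoters of the same length in the table. At least 2 matches were found in 3.49% of all promoters, which were not picked by their matches as those shown were. The remaining matches were at -115 from the CSK start, a kinase called in MOLM-14, and at -47 from another SYK start, and no promoter of FYN or YES1 held the motif. The motif was thus present before starts of FGR, SYK and CSK and also before that of BTK, which was not called in either line. A match of these letters is a description and not a site of binding.

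The responses of the lines were compared directly as the KG-1 difference minus the MOLM-14 difference. Of the 8 kinases, FGR and SRC were called higher and CSK lower, where 5.05% of genes were called higher and 4.89% lower. The SRC response exceeded that of MOLM-14 by 1.40 ± 0.29 log2 units (SE; limma, adjusted p = 0.0107), and this held in all 20 other settings. The FGR response was larger in KG-1 by 1.68 ± 0.49 (limma, adjusted p = 0.0471), and CSK differed by -0.51 ± 0.15 (limma, adjusted p = 0.0471). Both of these sat close to the threshold and were lost in 14 of 20 other settings each. The FGR call held without MOLM-14 ASLAN003 replicate 1 (adjusted p = 0.00737) or DMSO replicate 1 (0.00987) and was lost without any other library, with adjusted p between 0.0598 and 0.117. The CSK call was lost without any library but KG-1 ASLAN003 replicate 1 and MOLM-14 ASLAN003 replicates 1 and 3, with adjusted p between 0.0579 and 0.121. SYK differed by 0.45 ± 0.17 (adjusted p = 0.104) and was called without MOLM-14 ASLAN003 replicate 1 (log2 difference 0.57, adjusted p = 0.0136). The response differences of LYN (0.29 ± 0.17), FYN (0.02 ± 0.27), YES1 (-0.51 ± 0.27) and BTK (-0.36 ± 0.17) were not called.

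Between the lines, 4 of the 8 kinases were called with DMSO and 5 with ASLAN003, shares near those over all genes given below. With DMSO, KG-1 had more CSK than MOLM-14 (log2 difference 0.48 ± 0.10, limma, adjusted p = 0.00197) and less FYN (-3.31 ± 0.19, adjusted p = 2.27e-08), LYN (-1.47 ± 0.12, adjusted p = 4.80e-07) and SRC (-0.58 ± 0.21, adjusted p = 0.0325). Of all genes, 27.1% were higher in KG-1 and 22.1% lower. The SRC call was lost in 5 of 15 other settings, among them without KG-1 DMSO replicates 2 (adjusted p = 0.0943) or 3 (0.0819) and without MOLM-14 DMSO replicates 1 (0.113) or 2 (0.0904). With ASLAN003, KG-1 had more FGR (1.91 ± 0.35, limma, adjusted p = 0.000468) and SRC (0.81 ± 0.21, adjusted p = 0.00516) than MOLM-14. It had less FYN (-3.29 ± 0.19, adjusted p = 2.15e-08), LYN (-1.19 ± 0.12, adjusted p = 2.81e-06) and BTK (-0.36 ± 0.12, adjusted p = 0.0253). Here 27.9% of genes were higher in KG-1 and 25.2% lower. BTK lost its call in 5 of 15 settings, among them without KG-1 ASLAN003 replicates 1 (adjusted p = 0.0651) or 3 (0.0590) and without MOLM-14 ASLAN003 replicate 3 (0.0989, log2 difference -0.21). SRC was thus higher in KG-1 than in MOLM-14 with ASLAN003 and lower with DMSO.

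Ordered by mean level, FGR ran from KG-1 with ASLAN003 (55.2 ± 8.95 FPKM, SD, n = 3) through MOLM-14 with ASLAN003 (14.8 ± 7.44) and KG-1 with DMSO (5.08 ± 0.76) to MOLM-14 with DMSO (4.56 ± 2.36), and only the last 2 neighbours overlapped. For LYN no neighbours overlapped, from MOLM-14 with ASLAN003 (82.6 ± 7.69) and with DMSO (57.5 ± 2.19) to KG-1 with ASLAN003 (35.9 ± 5.15) and with DMSO (20.1 ± 0.89). SYK was at 64.5 ± 0.21 in KG-1 and 54.8 ± 8.29 FPKM in MOLM-14 with ASLAN003, which overlapped, and at 31.7 ± 2.83 in KG-1 and 36.8 ± 2.66 FPKM in MOLM-14 with DMSO. SRC was highest in KG-1 with ASLAN003 (11.6 ± 0.72), and MOLM-14 with ASLAN003 (6.35 ± 2.08) overlapped MOLM-14 with DMSO (4.64 ± 0.96), while KG-1 with DMSO (2.73 ± 0.31) was the lowest. FYN was at 17.8 ± 1.63 FPKM with ASLAN003 and 15.7 ± 3.01 FPKM with DMSO in MOLM-14, and at 0.92 ± 0.22 FPKM with ASLAN003 and 0.67 ± 0.28 FPKM with DMSO in KG-1, so that it overlapped within lines and not between them. For YES1 all neighbours overlapped. CSK stood apart only in being lowest in MOLM-14 with DMSO (128 ± 2.93), and BTK only in being lowest in KG-1 with ASLAN003 (61.1 ± 1.17).

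The makeup of the 5 SRC family members, which are not the whole family, differed between the groups. Their summed level was 108 ± 14.2 FPKM in KG-1 with ASLAN003 and 34.9 ± 1.34 FPKM with DMSO (SD, n = 3 each). In MOLM-14 the sum was 127 ± 16 FPKM with ASLAN003 and 86.9 ± 3.09 FPKM with DMSO. FGR made up 50.8% ± 1.67 of the sum in KG-1 with ASLAN003, against 14.5% ± 1.62 with DMSO, and 11.3% ± 4.14 in MOLM-14 with ASLAN003, against 5.27% ± 2.74 with DMSO. LYN made up 33.0% ± 1.6 in KG-1 with ASLAN003, against 57.6% ± 2.00 with DMSO, and 65.3% ± 2.29 in MOLM-14 with ASLAN003, against 66.2% ± 0.40 with DMSO. FGR thus held the largest share of the 5 in KG-1 with ASLAN003, and LYN in the other groups. These shares are descriptions, since 3 libraries against 3 cannot reach a small p in an exact permutation test.

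**Figure D3:**
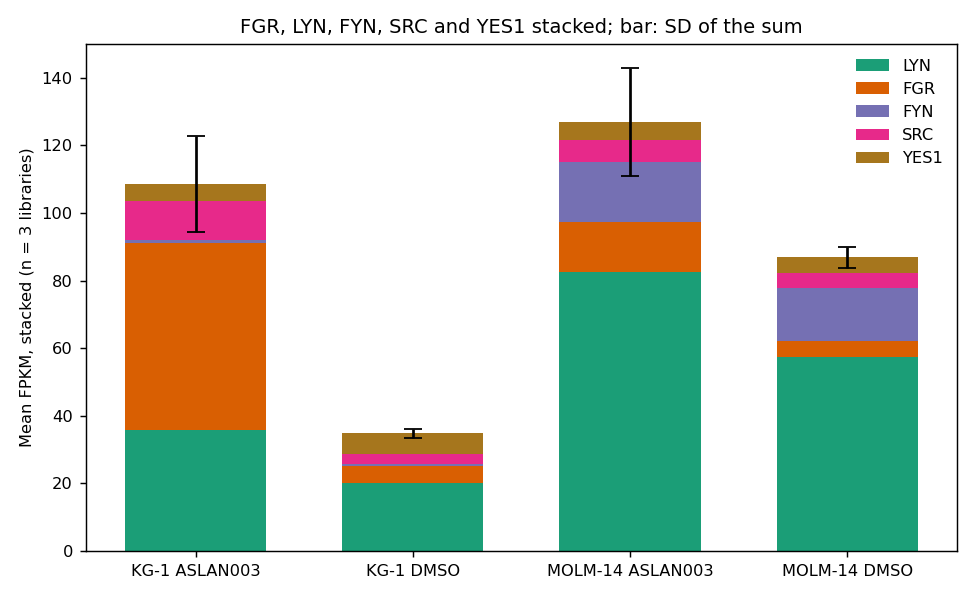
Mean level of FGR, LYN, FYN, SRC and YES1 in FPKM, stacked in each group of 3 libraries, with the SD of their sum as the error bar. FGR makes up 50.8% of the KG-1 bar with ASLAN003 and 14.5% of that with DMSO, and LYN the largest part of the other bars.

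The receptors and adaptors around these kinases were counted from 6 lists of genes, to be read against the 19.4% of all genes called higher in KG-1 and 9.69% in MOLM-14. A gene that reached the filter of 1 FPKM in 3 libraries only through KG-1 with ASLAN003 was left out of the KG-1 counts and medians, a choice made after seeing the data. Genes that needed the ASLAN003 libraries of the other line to reach it were kept. TREM1 and LILRB2, kept and called, averaged under 1 FPKM with DMSO in both lines, so their calls are only a description. Of 17 ITAM adaptors and activating receptors, 13 were tested, and 4 of these (CD79A, CD79B, CLEC5A and CLEC7A) reached the filter only in that way. Of the other 9, 8 rose in KG-1 and none fell (median log2 difference 1.1, against 0.05 over all genes). In MOLM-14, 6 of 13 rose and none fell (median 0.78, against 0.08), and 3 with the MOLM-14 libraries fitted alone. The MOLM-14 count and median keep the 4 genes left out in KG-1, none of which was called in MOLM-14. The counts and medians of the lines thus cover unlike sets of genes. TYROBP, the ITAM adaptor DAP12, was at 222 ± 77.6 FPKM with ASLAN003 and 26.1 ± 5.31 FPKM with DMSO in KG-1, and at 139 ± 35.0 FPKM with ASLAN003 and 52.0 ± 2.88 FPKM with DMSO in MOLM-14. FCER1G, the common Fc receptor gamma chain, was at 477 ± 22.2 FPKM with ASLAN003 and 71.8 ± 5.60 FPKM with DMSO in KG-1 (log2 difference 2.72 ± 0.60, limma, adjusted p = 0.00599). In MOLM-14, FCER1G was at 10.2 ± 7.57 FPKM with ASLAN003 and 3.17 ± 2.35 FPKM with DMSO. It was not called there (log2 difference 1.29 ± 0.60, limma, adjusted p = 0.194). LILRA2, an activating receptor, rose by 2.2 ± 0.16 in KG-1, and TREM1 (2.18 ± 0.34) and the Fc gamma receptor FCGR2A (1.17 ± 0.14) were among those that rose in MOLM-14. TREM1 was there at 6.45 ± 2.07 FPKM with ASLAN003 and 0.62 ± 0.34 FPKM with DMSO. The 1 of these 9 genes not called in KG-1, named after its values were seen, was TREM2 (log2 difference -0.91 ± 0.33, limma, adjusted p = 0.0512).

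Of 14 tested ITIM-bearing inhibitory receptors, SIGLEC5 and SIGLEC9 reached the filter only through KG-1 with ASLAN003. Of the other 12, 8 rose in KG-1 (median 0.92), and 6 of 14 rose in MOLM-14 (median 0.62), or 3 with MOLM-14 fitted alone, and none fell in either line. The MOLM-14 count and median keep SIGLEC5 and SIGLEC9, neither called there, so here too the lines are given on unlike sets of genes. PECAM1, the adhesion receptor CD31, was at 199 ± 9.91 FPKM with ASLAN003 and 28.6 ± 1.18 FPKM with DMSO in KG-1, and at 124 ± 36.1 FPKM with ASLAN003 and 22.2 ± 3.27 FPKM with DMSO in MOLM-14. SIGLEC5, a sialic acid receptor, was at 9.97 ± 0.93 FPKM with ASLAN003 and 0.07 ± 0.12 FPKM with DMSO in KG-1 and listed at 0 in MOLM-14. PILRA rose in KG-1 (3.12 ± 0.36) and in MOLM-14 (1.5 ± 0.36), where its call was lost without ASLAN003 replicate 1 (log2 difference 1.27, limma, adjusted p = 0.0535). CLEC12A rose in MOLM-14 by 1.56 ± 0.36.

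A list of 16 tested genes held phosphatases and ubiquitin ligases that act on these kinases, the adaptors PAG1 and LPXN and the lipid phosphatase INPP5D. Of these 16, 9 rose in KG-1 (median 0.77) and 5 in MOLM-14 (median 0.44), and none fell. PAG1, LPXN and INPP5D were among those called in KG-1, and LPXN among those called in MOLM-14. The MOLM-14 count was 3 without DMSO replicate 2, 9 with equal sums of listed FPKM and 1 with MOLM-14 fitted alone. PTPN22, a phosphatase that acts on SRC family kinases, was at 40.2 ± 5.03 FPKM with ASLAN003 and 10.7 ± 2.35 FPKM with DMSO in KG-1. The receptor phosphatases PTPRE (1.77 ± 0.22) and PTPRJ (1.57 ± 0.16) rose there too, and PTPRE also in MOLM-14 (1.10 ± 0.22). The ubiquitin ligases CBLB (0.86 ± 0.17) and CBL (0.74 ± 0.17) rose in MOLM-14, CBL not without DMSO replicate 2 (log2 difference 0.70, limma, adjusted p = 0.0574).

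Of 25 adaptors and effectors after SYK and BTK, 20 rose in KG-1 (median 0.97) and 13 in MOLM-14 (median 0.37), and none fell. The MOLM-14 count was 8 with median centring and 3 with MOLM-14 fitted alone. DAPP1, an adaptor of B cell signalling, was at 35.7 ± 1.62 FPKM with ASLAN003 and 11.1 ± 0.73 FPKM with DMSO in KG-1, and at 24.98 ± 2.80 FPKM with ASLAN003 and 8.04 ± 0.77 FPKM with DMSO in MOLM-14. In KG-1 the exchange factor RASGRP4 (1.91 ± 0.18) and the protein kinase C isoform PRKCB (1.71 ± 0.12) also led the list. In MOLM-14 the adaptors FYB (1.22 ± 0.14) and LCP2 (0.99 ± 0.17), which bind each other, followed DAPP1. Of 16 adhesion and cytoskeletal substrates of SRC family kinases, 9 rose in KG-1 (median 0.60) and 4 in MOLM-14 (median 0.25), or 1 with MOLM-14 fitted alone, and none fell. PTK2B, a focal adhesion kinase relative, was at 72.2 ± 5.90 FPKM with ASLAN003 and 22.4 ± 1.79 FPKM with DMSO in KG-1, and at 152 ± 56.7 FPKM with ASLAN003 and 82.2 ± 3.2 FPKM with DMSO in MOLM-14. The docking proteins DOK3 (1.59 ± 0.12) and DOK2 (1.52 ± 0.13) rose in KG-1, and SH2D3C (1.22 ± 0.26) and HCLS1 (0.46 ± 0.08) in MOLM-14.

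Of 6 relatives of SYK, BTK and CSK, 2 were tested, of which 1 fell in KG-1 and none rose, and 1 rose in MOLM-14 and none fell. MATK, a homologue of CSK, was at 23.8 ± 4.18 FPKM with ASLAN003 and 70.4 ± 9.33 FPKM with DMSO in KG-1, a log2 difference of -1.53 ± 0.22 (limma, adjusted p = 0.000153). The MOLM-14 levels were 40.7 ± 12.8 FPKM with ASLAN003 and 59.9 ± 7.77 FPKM with DMSO, a difference that was not called (-0.59 ± 0.22, adjusted p = 0.0918). TEC, a relative of BTK, was at 9.31 ± 1.56 FPKM with ASLAN003 and 5.17 ± 0.34 FPKM with DMSO in MOLM-14 (log2 difference 0.73 ± 0.18, limma, adjusted p = 0.0169), a call lost without DMSO replicate 1 (0.69, adjusted p = 0.0590). In KG-1 its difference was -0.22 ± 0.18. With the MOLM-14 libraries fitted alone, the MOLM-14 calls of CLEC12A, PILRA, PTPRE, CBLB, CBL, LCP2, SH2D3C, PTK2B and TEC were lost (limma, adjusted p between 0.0556 and 0.113).

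**Figure D4:**
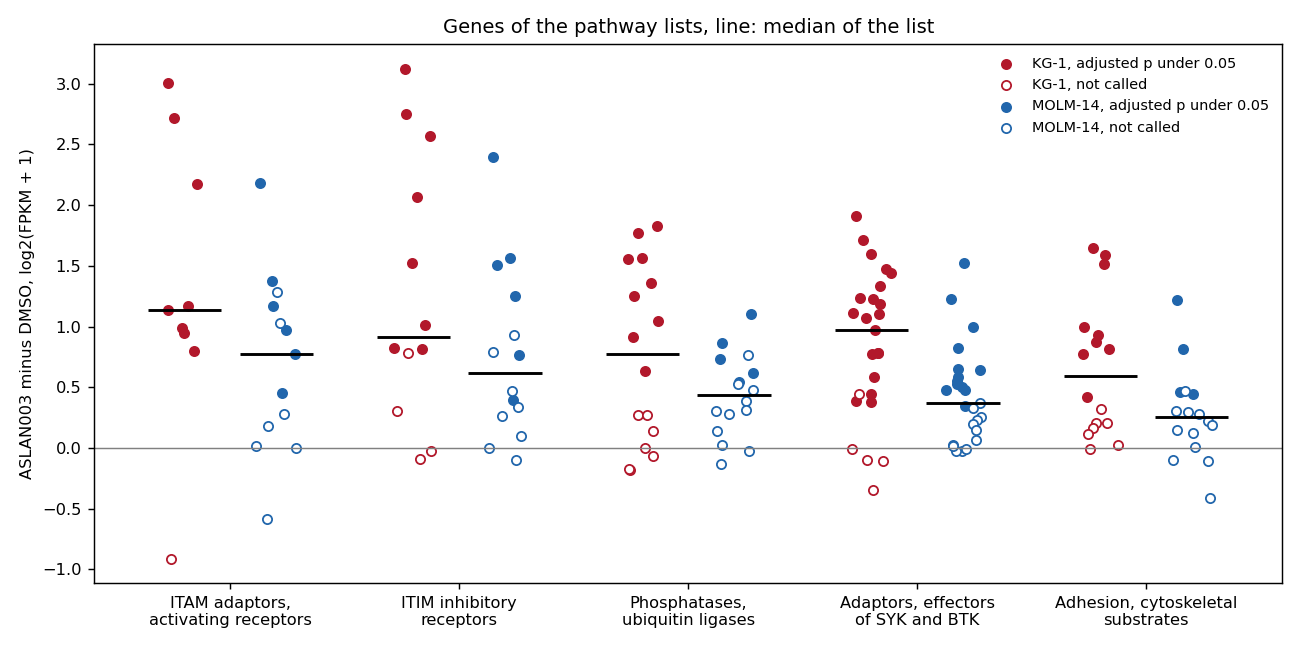
Difference in log2(FPKM + 1), ASLAN003 minus DMSO (vertical axis), of each tested gene (points) of 5 lists around the kinases, KG-1 left of MOLM-14 in each list, filled where the adjusted p is under 0.05, with the list's median as a line; genes that reached the filter only through KG-1 with ASLAN003 are left out in KG-1. The medians run from 0.60 to 1.1 in KG-1 and from 0.25 to 0.78 in MOLM-14, against 0.05 and 0.08 over all genes. For the ITAM and ITIM lists, the medians of the lines cover unlike sets of genes.

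The genes whose log2(FPKM + 1) followed each kinase most closely over the 12 libraries were named among 10519 tested genes with at least 5 FPKM in 1 group. The 12 libraries share 4 groups, so these Pearson correlations mostly describe differences between groups. For FGR they were DEDD2 (0.98), BIN2 (0.98) and CLN3 (0.97), and for LYN SCUBE1, RASSF2 and P2RY6 (0.99 each). For SYK they were CSTA, PTPRE and IL1B (0.98 each), and for SRC TTYH3 (0.99), HMHA1 (0.99) and NLRC5 (0.98). For FYN, which separates the lines, they were ANXA4, C12orf75 and CSNK2A1 (0.996, 0.996 and 0.995). The closest genes were less alike for BTK (FAM192A, 0.95; ANAPC5, 0.91; ZNF584, 0.89), CSK (C9orf69, 0.92; SNAP47, 0.90; CDIP1, 0.89) and YES1 (LRRC58, 0.84; SIRT3, 0.79; MRPS31P5, 0.77).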

How the data were processed

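RNA of 12 libraries of 2 leukaemia cell lines was sequenced. Per the submitters' processing notes, RSEM 1.2.25, STAR 2.4.2a and bcl2fastq 2.17.1.14 were used, and hg38 and GRCh38 are the builds named. The deposited table is on a log2 scale, which the authors' values show to be log2(FPKM + 1) in steps of 0.01 FPKM. It holds no read counts: the depth was estimated from the steps of low values with a fragment length of 180 assumed, and no counting interval was computed. The library kit was stranded, per the labels' protocols.

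The 13353 genes that reached 1 FPKM in 3 or more libraries were fitted with limma 3.58.1 in R 4.3.3 as 4 group means on log2(FPKM + 1), a pseudocount of 1, with eBayes trend and robust estimation. P-values are two-sided and adjusted over all genes (Benjamini-Hochberg). A log2 difference on this scale understates the change of low genes. The labels do not say that replicates were separate cultures, so p-values reflect the spread of these libraries alone, possibly a technical one. Positions are from GENCODE 29. The method was tested on data simulated with independent normal noise, a setting that does not cover effects shared between libraries.

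The kinases, lists and rules were chosen with earlier results of these data known. The rule names the kinases, the 3 genes most correlated with each, and up to 3 called genes with the largest change per list and line. 1 list is not reported here.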

Additional observations from a re-analysis of the deposited data

Results flagged for a closer look

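The ASLAN003 response differed between the lines, by the test of the difference itself in limma, for 3 of the 8 kinases. KG-1 minus MOLM-14, the log2 response difference was 1.68 for FGR, 1.40 for SRC and -0.51 for CSK. SRC kept this call in all 20 other settings, whereas FGR and CSK lost it in 14 of 20 each.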

How the results depend on the processing

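Over the kinases and 5 comparisons, 560 values under other settings kept their direction and their side of the threshold, 50 lost a call, 6 gained one and 24 changed sign. The changes of sign were of differences that were not called. In MOLM-14, BTK was -0.064 with median centring. For KG-1 minus MOLM-14 with DMSO, BTK was -0.051 with centring and -0.034 with quantile normalization. With ASLAN003, CSK was 0.021 with quantile normalization and 0.15 with equal sums, and YES1 0.044 with equal sums. The FYN response difference was -0.010 with quantile normalization and -0.0078 with equal sums, and CSK in KG-1 was 0.047 with equal sums. Equal sums of listed FPKM was chosen after seeing the data.

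Leaving out libraries gave ranges of -0.062 to 0.18 for BTK in MOLM-14 and -0.094 to 0.17 for the FYN response difference. For KG-1 minus MOLM-14 they were -0.22 to 0.0049 (YES1) and -0.12 to 0.064 (CSK) with ASLAN003, and -0.19 to 0.49 (FGR) and -0.078 to 0.065 (BTK) with DMSO. The calls ranged from 745 (without KG-1 DMSO replicate 1) to 2357 genes (without MOLM-14 ASLAN003 replicate 1) for the response difference, against 1327, and from 1 to 4 kinases. In MOLM-14 they ranged from 1070 (without DMSO replicate 2) to 2319 genes (without ASLAN003 replicate 3), and from 2 to 4 kinases. There the BTK and CSK relatives ranged from 0 to 2 calls and the list of phosphatases, ligases and adaptors from 3 to 6. Of the named list genes, 3 of 16 in MOLM-14 and 0 of 16 in KG-1 lost their call without at least 1 library. These genes were picked as called and most changed in the same data, so the counts are only a description. SIGLEC5, among those of KG-1, reached the filter only through KG-1 with ASLAN003. TREM1, among those of MOLM-14, averaged under 1 FPKM with DMSO in both lines.

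For the response difference, 1 kinase was called with a pseudocount of 0.1 and 1 without trend and robust estimation. With MOLM-14 fitted alone, 346 genes and 0 kinases were called. The lists then had 0 relatives, 3 ITAM genes, 3 ITIM genes, 1 phosphatase, ligase or adaptor, 3 effectors and 1 substrate. At a filter of 5 FPKM, 7 ITAM genes were called in KG-1, against 12 of the 13 tested otherwise, or 8 of the 9 counted above. Genes under 5 FPKM leave that test, so the counts do not cover the same genes. Neither the 7 nor the 12 leaves out genes that passed only through KG-1 with ASLAN003. In MOLM-14, 8 effectors were called with centring, 0 relatives with quantile normalization and 9 phosphatases, ligases and adaptors with equal sums.

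The share of calls that were higher was 57.5% in KG-1, 42.7% with centring, 46.1% with quantile normalization and 74.2% with equal sums. In MOLM-14 it was 74.5%, 44.1%, 57.1% and 87.3% in that order. The median of all genes moved from 0.05 to -0.07, -0.05 and 0.20 in KG-1, and from 0.08 to -0.07, -0.02 and 0.18 in MOLM-14. FGR, LYN and SYK in both lines and SRC in KG-1 kept their calls under these scalings, and CSK in MOLM-14 lost its call with centring (adjusted p = 0.139) and quantile normalization (0.0834).

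As shares of summed log2(FPKM + 1), FGR was 32.0% in KG-1 with ASLAN003 and 20.8% with DMSO, and 19.4% with ASLAN003 and 13.7% with DMSO in MOLM-14. LYN was 28.6% with ASLAN003 and 35.2% with DMSO in KG-1, and 32.0% with ASLAN003 and 34.1% with DMSO in MOLM-14. Same-numbered libraries did not deviate together (correlations -0.002 to 0.10). This cannot show whether they were prepared together. With a replicate block, 4364 genes were called in KG-1 and 1586 in MOLM-14, and the FGR response difference of 1.68 was no longer called (limma, adjusted p = 0.0771), the 1 kinase call that changed.

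With 3 libraries a group and no read counts, precision rests on the spread between libraries.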
